A study of Mus musculus with 44 samples.

Results

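The genes described here are 41 mouse imprinted genes of 19 clusters, each read through the counts of histone marks in a window around its transcription start site. They were taken from a list of gene names, and all 41 were found among the 27095 genes of the deposited count table. Each gene has 1 window, in which the expressed and the silent parental copy are counted together. The cells were HPC7, blood progenitors of the mouse that depend on stem cell factor in culture, transduced with a retrovirus that also encodes GFP, sorted for GFP and expanded. The vector carried wild-type Snai1, a mutant Snai1 with a phenylalanine-to-alanine change at residue 5 that impairs its interaction with the demethylase Lsd1, or no insert, so all groups carry the vector and the sort. H3K4me2 and H3K4me1 were each measured in 3 libraries per construct, IgG in 2 libraries of wild-type Snai1 cells, and Snai1 binding is given as 1 peak list per construct made from 4 technical replicates.

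At an imprinted locus, only the copy inherited from one parent is transcribed, as laid down by DNA methylation of a control region in egg or sperm. Methylation of lysine 4 on histone H3 marks the unmethylated, active copy: H3K4me2 lies at active promoters and enhancers, and H3K4me1 chiefly at enhancers and promoter flanks. Lsd1, which Snai1 can recruit through its N-terminal SNAG domain, removes both marks, and its relative Kdm1b removes H3K4 methylation in the egg so that maternal imprints can be set.

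Reads counted in windows ranged from 8694515 to 18199945 in H3K4me2 libraries and from 4042976 to 8813537 in H3K4me1 libraries. Both IgG libraries were shallower, at 3355479 and 2714255. Of 12 progenitor marker genes, 11 carried both marks above the level of silent gene families, and Erg did not. Markers of other cells were also marked in part, with 4 of 5 lymphoid, 2 of 4 erythroid, 2 of 5 epithelial and 2 of 5 fibroblast genes above that level in H3K4me2 (58.9% of all windows). Replicate 1 stood apart from replicates 2 and 3: within a construct, its counts differed from theirs by 9.49 to 17.7 times the variance of counting, against 0.980 to 2.30 times between replicates 2 and 3. H3K4me1 replicates 2 and 3 of the empty vector differed by no more than counting error (0.980 times) and were summed to 1 sample in the tests, so that n was 2 there. The labels do not say whether replicates are separate transductions, so p-values measure only the spread between these libraries.

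The upstream sequences that the results below turn on are given first, from RefSeq on GRCm38.p6, 5′ to 3′ on the strand of the gene. They are the 250 bases before the start of Mcts2 and Mkrn3, which carry a peak of mutant Snai1, of Dlk1 and Airn, which lead the construct comparisons, and the 163 bases between the starts of Peg3 and Usp29, whose windows share nearly all their reads. Capitals mark TGCCGC or its complement GCGGCA, the hexamer bound by the imprint-keeping protein ZFP57, and CAGGTG or its complement CACCTG, the E-box bound by Snai1.
Mcts2, chr2:152686898-152687147, plus strand: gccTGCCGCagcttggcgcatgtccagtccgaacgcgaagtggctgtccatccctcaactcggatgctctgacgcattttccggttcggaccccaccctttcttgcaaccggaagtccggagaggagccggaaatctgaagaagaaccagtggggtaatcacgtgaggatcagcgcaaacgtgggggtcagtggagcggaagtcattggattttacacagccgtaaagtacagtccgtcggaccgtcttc
Mkrn3, chr7:62420154-62420403, minus strand: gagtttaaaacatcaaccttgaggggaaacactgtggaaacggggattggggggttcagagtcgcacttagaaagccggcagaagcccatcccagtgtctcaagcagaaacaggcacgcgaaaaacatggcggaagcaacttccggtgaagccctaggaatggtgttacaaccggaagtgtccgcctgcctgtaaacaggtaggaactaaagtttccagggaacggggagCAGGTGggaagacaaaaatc
Dlk1, chr12:109452573-109452822, plus strand: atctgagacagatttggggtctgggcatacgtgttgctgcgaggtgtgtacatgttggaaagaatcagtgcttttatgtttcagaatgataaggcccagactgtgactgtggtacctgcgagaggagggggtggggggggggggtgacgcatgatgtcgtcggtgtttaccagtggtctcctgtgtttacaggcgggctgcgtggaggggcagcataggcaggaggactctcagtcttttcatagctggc
Airn, chr17:12741061-12741310, plus strand: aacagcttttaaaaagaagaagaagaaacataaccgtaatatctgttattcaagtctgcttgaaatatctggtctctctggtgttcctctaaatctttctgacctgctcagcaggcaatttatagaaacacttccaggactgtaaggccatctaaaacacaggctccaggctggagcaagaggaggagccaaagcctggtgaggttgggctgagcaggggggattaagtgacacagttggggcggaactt
Peg3 to Usp29, chr7:6730420-6730582, plus strand: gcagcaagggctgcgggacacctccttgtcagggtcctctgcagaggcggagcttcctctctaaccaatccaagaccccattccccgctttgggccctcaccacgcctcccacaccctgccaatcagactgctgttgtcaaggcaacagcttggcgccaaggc

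The printed sequences of Dlk1, Airn and the Peg3 to Usp29 stretch hold neither motif in these letters, Mcts2 holds the hexamer and Mkrn3 the E-box. Over the 33 imprinted genes with a RefSeq promoter, 6 held the hexamer and 3 the E-box on either strand in the 250 bases upstream of their start with the most CpG, against 8.68% and 17.2% of 32817 promoters. The E-box holders were Ascl2, Igf2r and Mkrn3, and Gnas, Mest and Snrpn held it upstream of another start. The median number of CpG dinucleotides was 12 in imprinted promoters, at the start with the most CpG, and 6 in all promoters. Starts were not chosen by CpG among all promoters, so the motif shares and CpG medians are not like for like. Promoters of windows with both marks and with neither mark had the same median of 12. For 7 of the genes RefSeq gives several starts, and the deposited table does not say which start its window surrounds.

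Most imprinted windows carried no more H3K4 methylation than gene families silent in blood, and a minority carried both marks above that level. Levels were set against 1476 windows of olfactory and vomeronasal receptor genes, as the log2 of a mark over IgG in wild-type Snai1 cells minus the median of these silent families. A window was counted as marked above the 95th percentile of the silent families, 0.69 for H3K4me2 and 1.41 for H3K4me1, which is a description and not a test. By this rule 15 of 41 windows carried both marks (57.5% of all 26235 windows did), Dlk1 and Magel2 carried H3K4me2 only (1.4% of all windows), Igf2r carried H3K4me1 only (4.03%) and 23 carried neither (37.1%). H3K4me2 alone was above its line in 17 of the 41 windows (58.9% of all windows) and H3K4me1 in 16 (61.5%). The median imprinted window stood 0.21 above the silent median in H3K4me2 and 0.51 in H3K4me1, against 1.87 and 2.66 over all windows and 4.86 and 3.82 over 25 housekeeping genes. In the 15 windows with both marks H3K4me2 ran from 0.71 (Phlda2) to 5.23 (H13), and in the housekeeping genes from 1.32 to 5.66. Of 24 paternally expressed genes 8 carried both marks, and of 12 maternally expressed genes 4 did.

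**Figure D1:**
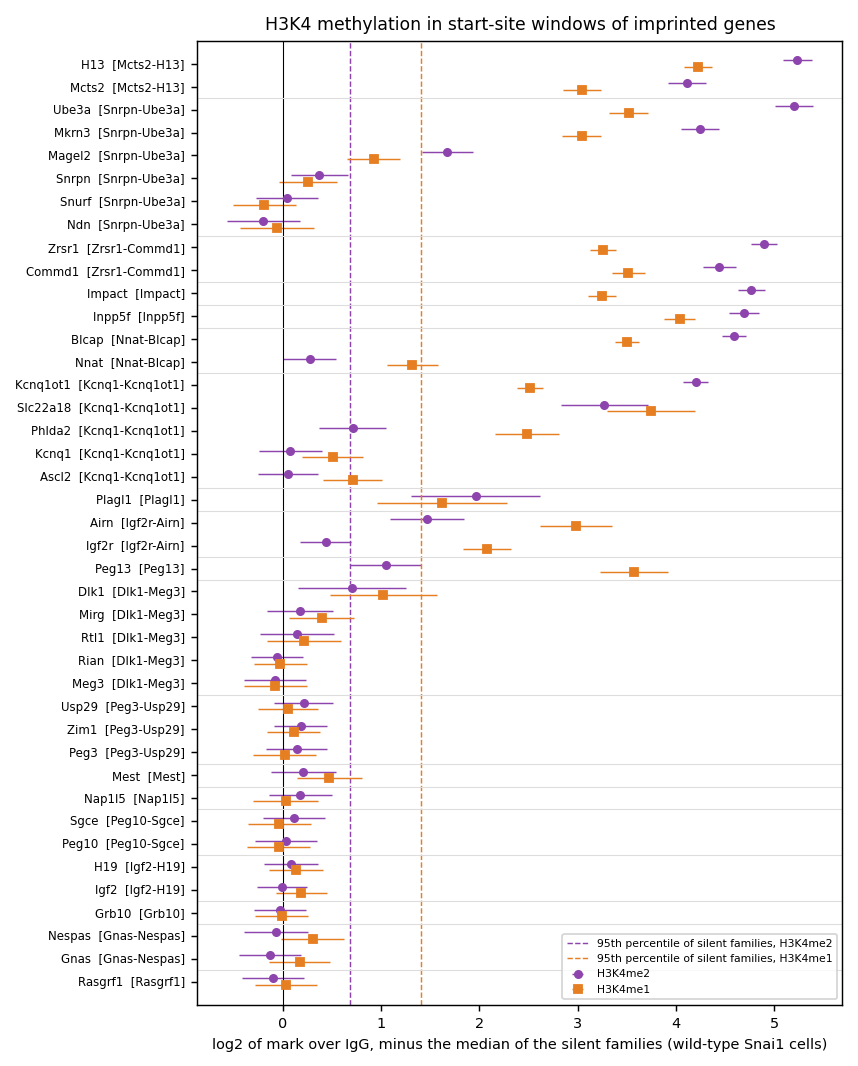
Level of H3K4me2 (circles) and H3K4me1 (squares) in each of the 41 imprinted windows, in log2 units of mark over IgG minus the median of the silent families, in wild-type Snai1 cells (3 libraries per mark, 2 of IgG). Bars are standard errors of the fit, dashed lines are the 95th percentiles of the silent families, and brackets give the cluster. Levels run up to 5.23 for H13, and the 23 windows with neither mark lie between -0.20 and 0.37 in H3K4me2.

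The most strongly marked windows included genes with broad cellular roles and the retrogenes Zrsr1 and Mcts2. H13, which encodes signal peptide peptidase (chr2:152669422-152708668), stood 5.23 above the silent median in H3K4me2 and 4.22 in H3K4me1. Mcts2, a retrogene inside an intron of H13 that is expressed from the paternal copy, stood at 4.11 and 3.04. Ube3a, a ubiquitin ligase imprinted in neurons, stood at 5.20 in H3K4me2 and 3.52 in H3K4me1. Zrsr1, a splicing-factor retrogene inside an intron of Commd1, stood at 4.89 and 3.26, and its host Commd1 at 4.44 and 3.52. Commd1 has 2 RefSeq starts, of which the closer lies 861 bases from that of Zrsr1, so the windows may share reads. Their counts differed by up to 299 in a library. Impact, a regulator of the eIF2α kinase Gcn2, stood at 4.76 in H3K4me2 and 3.25 in H3K4me1. Inpp5f, a phosphoinositide phosphatase, stood at 4.69 and 4.04, and Blcap, the host of Nnat, at 4.59 and 3.50. Kcnq1ot1, the paternal noncoding RNA that silences its neighbours, stood at 4.20 and 2.52, and Mkrn3, a makorin zinc finger gene, at 4.24 and 3.04.

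The values were steady between libraries for most of these genes. H13 had 116, 121 and 117 CPM of H3K4me2 (the window's reads scaled to a common library size with TMM factors) in replicates 1, 2 and 3 of wild-type Snai1 cells, 129, 113 and 113 in mutant Snai1 cells and 123.4, 116 and 122 in empty-vector cells. Zrsr1 had 79.6, 78.3 and 88.2 CPM of H3K4me2 in wild-type Snai1 cells, 81.0, 79.3 and 85.1 in mutant Snai1 cells and 73.8, 75.1 and 71.1 in empty-vector cells. Every H3K4me2 value of Zrsr1 with either Snai1 construct lay above the highest empty-vector value, and no construct comparison of Zrsr1 passed the test. Kcnq1ot1 had 61.3, 62.5 and 59.1 CPM in wild-type Snai1 cells, 63.0, 48.3 and 45.9 in mutant Snai1 cells and 58.5, 51.0 and 51.8 in empty-vector cells.

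A second group of marked windows was weaker in H3K4me2. Slc22a18, a transporter gene of the Kcnq1 cluster, stood at 3.27 in H3K4me2 and 3.75 in H3K4me1, and Plagl1, a zinc finger growth regulator, at 1.96 and 1.62. Airn, the paternal noncoding RNA that silences Igf2r, stood at 1.47 and 2.98. Peg13, a noncoding RNA inside Trappc9, stood at 1.05 and 3.57, and Phlda2, a growth inhibitor of the placenta, at 0.71 and 2.49. Magel2 stood at 1.68 in H3K4me2 and 0.93 in H3K4me1. The values just above the H3K4me2 line of 0.69 were those of Dlk1 (0.70) and Phlda2 (0.71), and the highest below it was that of Igf2r (0.44). Dlk1 and Plagl1 had wide errors (SE 0.55 and 0.65 in H3K4me2), and their libraries are given below.

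The 23 windows with neither mark held all members of 8 clusters. These were Igf2 and H19, the insulin-like growth factor and its maternal noncoding partner; Peg3, Usp29 and Zim1; Peg10 and Sgce; Gnas and its antisense transcript Nespas; Mest; Grb10; Nap1l5; and Rasgrf1. In the Dlk1-Meg3 cluster, Meg3, Rtl1, Rian and Mirg carried neither mark. Kcnq1 and Ascl2 of the Kcnq1 cluster, Snrpn, Snurf and Ndn of the Snrpn-Ube3a cluster, and Nnat completed the list. In H3K4me2 these 23 windows lay between -0.20 and 0.37 and in H3K4me1 between -0.19 and 1.32. The upper end was Nnat, just under the H3K4me1 line. Igf2, Mest, Grb10, Gnas, Meg3 and Snrpn have several RefSeq starts. Which start their windows surround is not given, so another start of these genes may be marked.
Several of the 23 windows are not, or may not be, separate measurements. Peg3 and Usp29 start 164 bases apart and held 535 and 539 counts over the 18 libraries of both marks, with no library differing by more than 4. Peg10 and Sgce, with gene ends 102 bases apart, held 602 and 628 counts. Snrpn and Snurf share a RefSeq start and held 490 and 508 counts, differing by up to 27 in a library. Rtl1 and Rian, with gene ends 473 bases apart, held 595 and 631 counts, differing by up to 23.

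Tested against IgG on column totals, 9 imprinted windows were higher in H3K4me2 at an adjusted p under 0.05 (35.6% of all windows) and 4 in H3K4me1 (29% of all windows). The 9 were H13, Ube3a, Zrsr1, Impact, Inpp5f, Blcap, Commd1, Mkrn3 and Kcnq1ot1, and the 4 were H13, Inpp5f, Blcap and Commd1. H13 was 1.47 ± 0.15 higher in H3K4me2 than in IgG on the log2 scale (SE; edgeR adjusted p = 1.16e-06) and 1.12 ± 0.15 higher in H3K4me1. On this scale the silent families lie at -3.76 in H3K4me2 and -3.10 in H3K4me1, since enriched windows take a larger part of a mark library. With libraries scaled to the silent families, 15 imprinted windows were higher than IgG in H3K4me2 (55.2% of all windows) and 17 in H3K4me1 (62.8% of all windows).

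The balance of the marks differed between the imprinted windows, with Ube3a, Zrsr1, Impact and Kcnq1ot1 on the side of H3K4me2 and Peg13, Phlda2, Airn and Igf2r on the side of H3K4me1. Averaged over the constructs and on column totals, H3K4me2 was higher than H3K4me1 in 9 of 41 windows (28% of all 26008 windows) and H3K4me1 was higher in 22 (49.9% of all windows), at an adjusted p under 0.05 in edgeR. Ube3a (log2 difference 1.02 ± 0.10, SE), Zrsr1 (0.99 ± 0.06), Impact (0.98 ± 0.10) and Kcnq1ot1 (0.92 ± 0.07) led in the direction of H3K4me2, followed by Mkrn3 (0.64 ± 0.12). Peg13 (-2.81 ± 0.24), Phlda2 (-2.31 ± 0.20), Airn (-2.07 ± 0.24), Nnat (-1.67 ± 0.25) and Igf2r (-1.61 ± 0.17) led in the direction of H3K4me1. With libraries scaled to the silent families the split was 16 with H3K4me2 higher (47.4% of all windows) against 7 with H3K4me1 higher (22.6% of all windows). The number on each side thus depends on the scale. On column totals the silent families over IgG lay at -3.76 in H3K4me2 and -3.10 in H3K4me1. The 22 windows included some with neither mark, such as Igf2 (-0.88 ± 0.16) and H19 (-0.80 ± 0.19). Inpp5f was near balance on column totals (-0.04 ± 0.08).

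**Figure D2:**
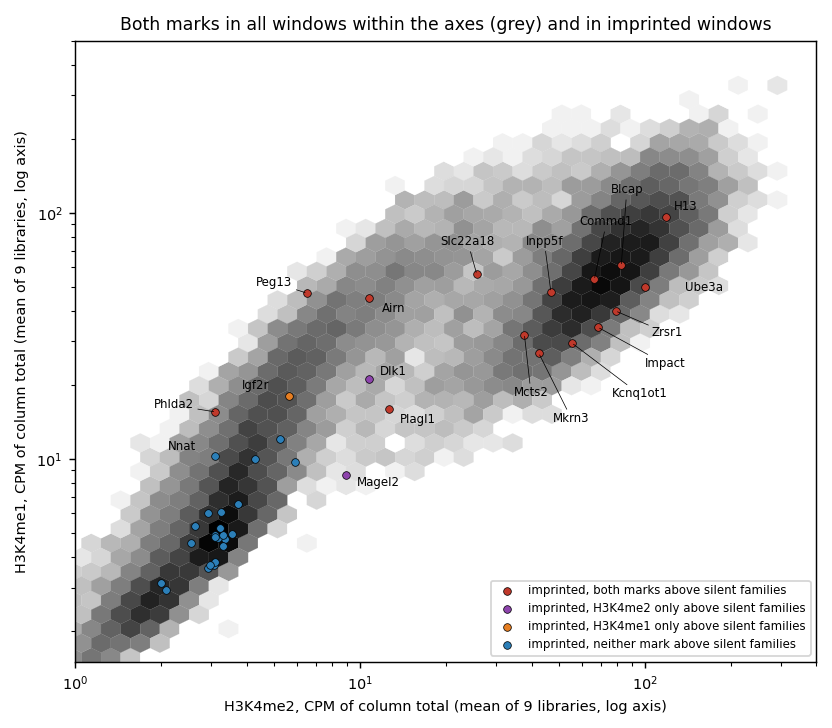
H3K4me2 (horizontal, CPM of column total) against H3K4me1 (vertical), both on log axes and averaged over 9 libraries. All windows within the axes are grey, darker where denser. The 41 imprinted windows are dots, coloured by which mark stood above the silent families in wild-type Snai1 cells. Peg13, Airn, Phlda2 and Igf2r lie on the H3K4me1 side, while Ube3a, Zrsr1, Impact and Kcnq1ot1 lie on the H3K4me2 side of the strongly marked windows.

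The constructs were compared to ask whether Snai1, or its interaction with Lsd1, changes H3K4 methylation at these start sites. No imprinted window passed at an adjusted p under 0.05 in any of the 6 comparisons. Across all windows, edgeR called 1 window in H3K4me2 of wild-type Snai1 against empty vector (0.00388% of windows) and none in the other 5 comparisons (0%). At an unadjusted p under 0.05, wild-type Snai1 against empty vector held 0 imprinted windows in H3K4me2 (7.32% of all windows) and 3 in H3K4me1 (2.88%). Mutant Snai1 against empty vector held 4 (4.95%) and 1 (1.61%), and wild-type against mutant Snai1 held 4 (9.9%) and 5 (5.24%). DESeq2 called 1 imprinted window, Dlk1, in H3K4me1 of wild-type against mutant Snai1 (0.154% of all windows). With replicate number as a block, edgeR called 5 windows in H3K4me2 and 2 in H3K4me1 for wild-type Snai1 against empty vector, none of them imprinted. Comparisons with the empty vector share its libraries, and comparisons with the same construct share those.

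The median log2 fold change of the 41 windows was -0.12 in H3K4me2 and -0.06 in H3K4me1 for wild-type Snai1 against empty vector, with -0.01 and -0.02 over all windows. It was 0.02 and 0.02 for mutant Snai1 against empty vector, with 0.03 and 0.00 over all windows, and -0.14 and -0.08 for wild-type against mutant Snai1, with -0.04 and -0.01 over all windows. Groups did not overlap in 5 imprinted windows of H3K4me2 in each comparison (12.9%, 6.86% and 9.22% of all windows, in the same order). In H3K4me1 they did not overlap in 6, 4 and 4 windows (14%, 10.5% and 8.63% of all windows). The difference between the marks was called in 0 imprinted windows (0% of all windows in each comparison). Its smallest p among the imprinted windows was that of Igf2r in both comparisons with wild-type Snai1, and that of Igf2 in mutant Snai1 against empty vector.

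**Figure D3:**
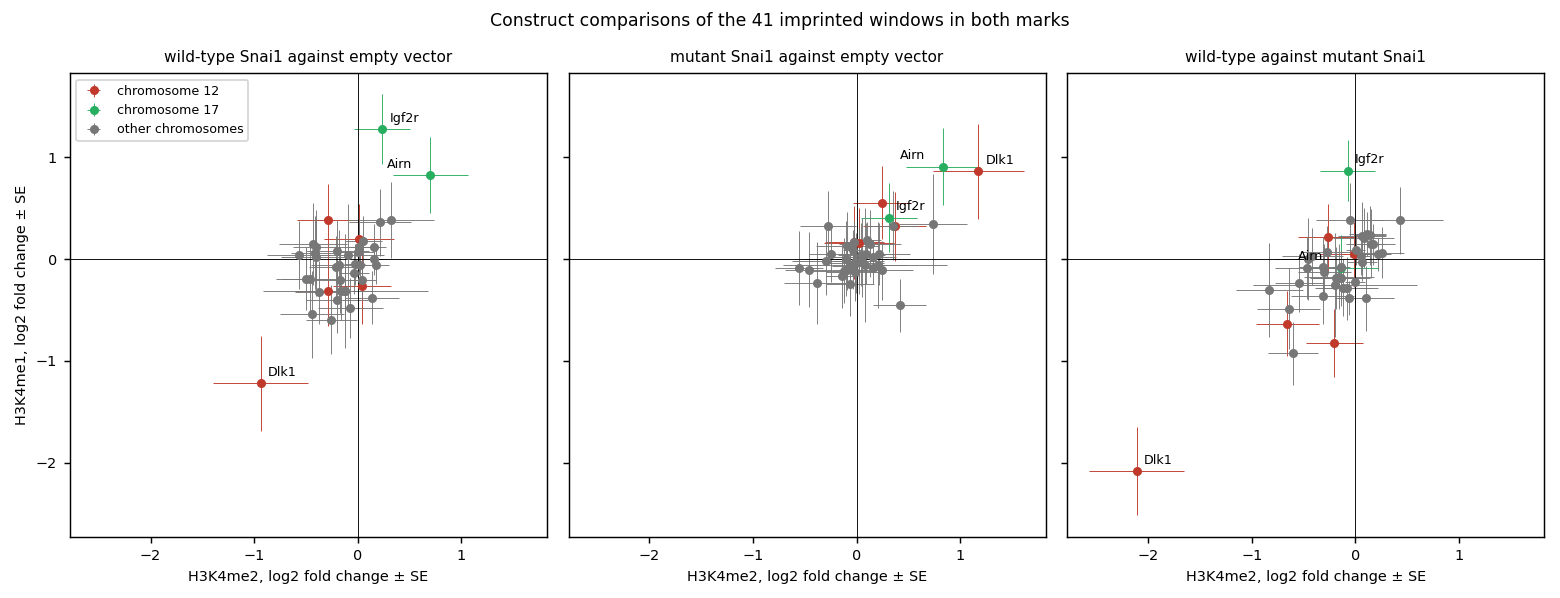
Log2 fold change of H3K4me2 (horizontal) against that of H3K4me1 (vertical) for the 41 imprinted windows in each construct comparison, with standard errors as bars. Colours mark chromosome 12, which holds Dlk1 and Meg3, and chromosome 17, which holds Igf2r and Airn. Dlk1 lies farthest from 0 in the comparison of wild-type with mutant Snai1, at -2.11 and -2.08.

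Dlk1, a paternally expressed transmembrane protein of the Notch ligand family (chr12:109452485-109463336), was the imprinted window with the largest difference. In H3K4me2 it had 7.19, 2.40 and 3.17 CPM in replicates 1, 2 and 3 of wild-type Snai1 cells, 13.3, 21.96 and 21.7 CPM in mutant Snai1 cells, and 14.2, 5.49 and 5.15 CPM in empty-vector cells. Every wild-type library lay below every mutant library, and empty-vector replicate 1 stood near the mutant libraries while its replicates 2 and 3 stood near the wild-type ones. In H3K4me1 it had 15.3, 4.96 and 4.46 CPM in wild-type Snai1 cells, 28.8, 33.4 and 46.0 CPM in mutant Snai1 cells and 25.2, 15.6 and 13.7 CPM in empty-vector cells. Wild type again lay below mutant in every library, and wild-type replicate 1 lay above empty-vector replicate 3 alone.
Dlk1 H3K4me2 averaged 4.25 ± 2.57 CPM in wild-type Snai1 cells and 18.99 ± 4.95 CPM in mutant Snai1 cells (SD, n = 3 each), a log2 fold change of -2.11 ± 0.46 (SE; edgeR adjusted p = 0.503). H3K4me1 averaged 8.24 ± 6.11 CPM in wild-type and 36.1 ± 8.92 CPM in mutant Snai1 cells (SD, n = 3 each), a log2 fold change of -2.08 ± 0.44 (edgeR adjusted p = 0.725). The call changed with the fit: Dlk1 passed with replicates 2 and 3 summed and a term for replicate 1 in H3K4me2 (edgeR adjusted p = 0.00037) and in H3K4me1 (0.00398), with scaling to the silent families in H3K4me2 (0.00445), and with DESeq2 in H3K4me1 (0.00142). The difference had the same sign in replicate 1 alone (-0.86 and -0.90 in H3K4me2 and H3K4me1) and in replicates 2 and 3 (-2.88 and -2.99). In the fit over all libraries, the median window of chromosome 12 differed by -0.02 in both marks between wild type and mutant. Among its windows above the median level of all windows, the median was -0.09 in H3K4me2 and -0.19 in H3K4me1 in replicate 1. In replicates 2 and 3 it was 0.24 and 0.17.
Against the empty vector, Dlk1 was 1.17 ± 0.44 in mutant Snai1 cells in H3K4me2 (edgeR adjusted p = 0.952) and 0.86 ± 0.47 in H3K4me1, with log2 differences of -0.10 and 0.19 in replicate 1 and of 1.99 and 1.41 in replicates 2 and 3. In wild-type Snai1 cells it was -0.94 ± 0.46 in H3K4me2 and -1.22 ± 0.47 in H3K4me1 (edgeR adjusted p = 0.699 and 1.00). The shift of chromosome 12 against the empty vector was again taken over its windows above the median level of all windows. In replicates 2 and 3 their median was 0.76 in H3K4me2 and 0.67 in H3K4me1 with wild-type Snai1. With mutant Snai1 it was 0.49 and 0.47. With chromosome shifts removed, Dlk1 against the empty vector was -1.29 and -1.43 in wild-type and 0.95 and 0.66 in mutant Snai1 cells, in H3K4me2 and H3K4me1.

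The other windows of the Dlk1-Meg3 cluster were at the level of silent families in wild-type Snai1 cells, where IgG was measured. Meg3, the maternal noncoding RNA, had 3.08, 1.64 and 2.35 CPM of H3K4me2 in wild-type Snai1 cells, 2.68, 4.31 and 4.70 in mutant Snai1 cells and 3.69, 2.84 and 2.24 in empty-vector cells. Wild-type and mutant libraries overlapped through replicate 1, and the log2 fold change was -0.66 ± 0.31 (edgeR adjusted p = 0.503). Rian, a host of small nucleolar RNAs, had 5.14, 3.52 and 4.46 CPM of H3K4me1 in wild-type, 4.55, 9.13 and 10.3 in mutant and 5.38, 4.54 and 6.01 in empty-vector cells. For wild-type against mutant its log2 fold change was -0.82 ± 0.33 in H3K4me1 (edgeR adjusted p = 0.898) and -0.21 ± 0.27 in H3K4me2. Rtl1 and Mirg had no H3K4me2 value above 4.70 CPM in any library.

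In the Igf2r-Airn cluster on chromosome 17, both genes had higher values with either Snai1 construct than with the empty vector, in replicates 2 and 3. Airn had 6.505, 15.6 and 13.7 CPM of H3K4me2 in wild-type Snai1 cells, 7.51, 15.6 and 16.1 CPM in mutant Snai1 cells and 7.67, 7.74 and 6.38 CPM in empty-vector cells. Replicate 1 was alike in the 3 constructs, and replicates 2 and 3 of both Snai1 constructs lay above every empty-vector library. In H3K4me1 Airn had 26.8, 65.5 and 63.4 CPM in wild-type, 37.1, 67.0 and 60.6 CPM in mutant and 34.5, 23.6 and 24.6 CPM in empty-vector cells. The log2 fold change against the empty vector in H3K4me2 was 0.70 ± 0.36 for wild type and 0.84 ± 0.36 for mutant (edgeR adjusted p = 0.731 and 0.952), and in H3K4me1 0.82 ± 0.37 and 0.91 ± 0.37 (1.00 in both). Wild type and mutant differed by -0.14 ± 0.35 and -0.08 ± 0.33, with a sign that turned on scaling to the silent families (0.27 and 0.02).
Shifts of whole chromosomes were taken as medians over those windows of a chromosome that lay above the median level of all windows. Between wild-type Snai1 and the empty vector, chromosome 17 differed by 0.48 in H3K4me2 and 0.49 in H3K4me1 in replicates 2 and 3. In replicate 1 it differed by -0.04 and -0.13. For mutant Snai1 it differed by 0.05 and 0.10 in replicates 2 and 3, where chromosomes 6, 7, 9, 10, 11 and 15 lay between -0.22 and -0.13 in H3K4me2 and between -0.16 and -0.10 in H3K4me1. Its part in the values of Airn and Igf2r was not tested beyond a fit with the chromosome shifts removed, in which Airn H3K4me2 was 0.38 for wild type and 0.85 for mutant against the empty vector.

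Igf2r, the maternally expressed receptor that clears Igf2 (chr17:12682406-12769706), had its highest H3K4me1 in wild-type Snai1 cells. It had 23.9, 29.8 and 31.4 CPM of H3K4me1 in wild-type Snai1 cells, 20.0, 12.9 and 13.4 CPM in mutant Snai1 cells and 15.99, 7.09 and 8.25 CPM in empty-vector cells. Every wild-type library lay above every mutant and every empty-vector library. The log2 fold change of wild type was 1.27 ± 0.34 against the empty vector (edgeR adjusted p = 1.00) and 0.87 ± 0.30 against mutant (edgeR adjusted p = 0.872). In H3K4me2 Igf2r had 6.39, 4.37 and 6.64 CPM in wild-type, 5.998, 6.55 and 5.89 in mutant and 6.80, 3.82 and 4.03 in empty-vector cells, which overlap. The difference between the marks was -1.03 ± 0.45 for wild type against the empty vector (edgeR adjusted p = 1.00) and did not pass.

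**Figure D4:**
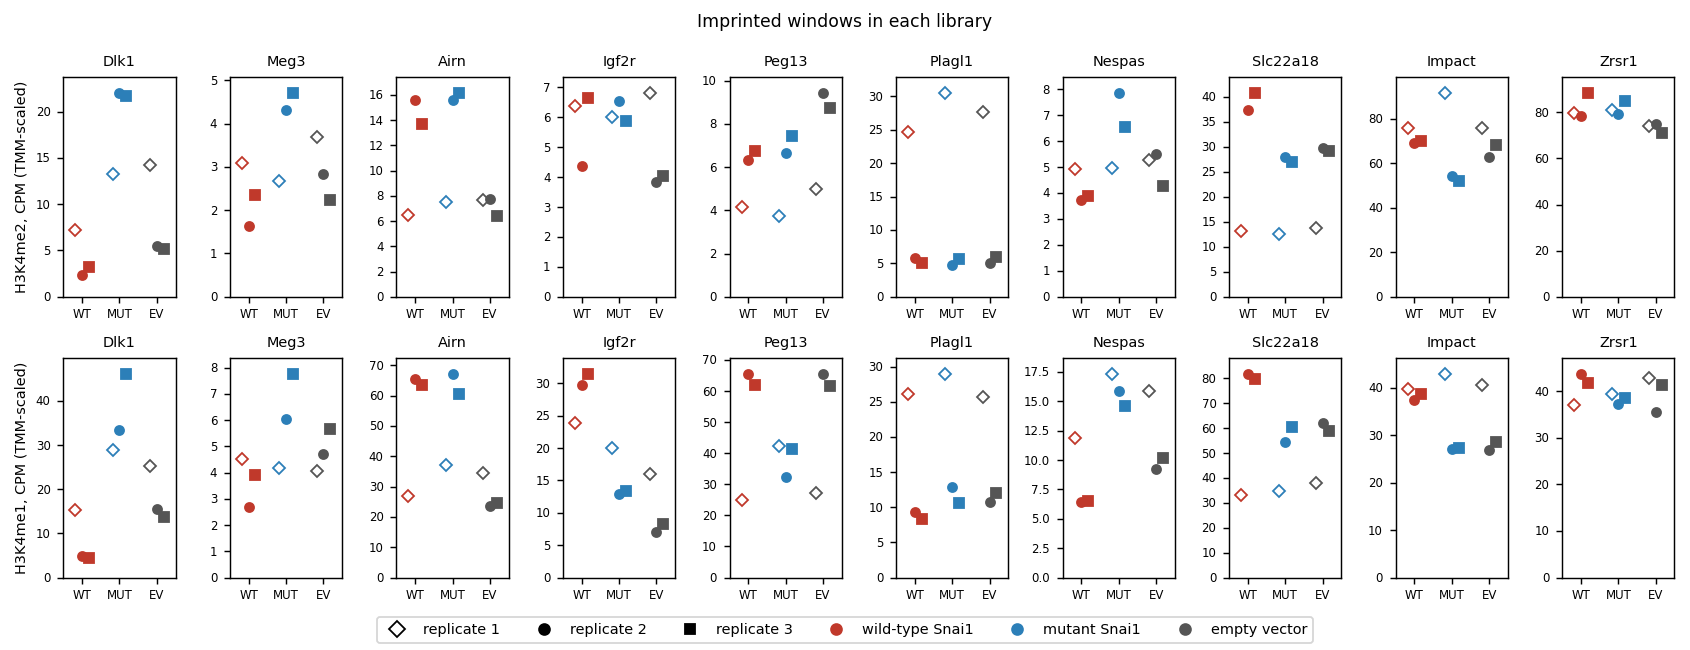
CPM on TMM-scaled library sizes of 10 imprinted windows in each library, with H3K4me2 in the upper and H3K4me1 in the lower row, by construct (red wild-type Snai1, blue mutant Snai1, grey empty vector). Open diamonds are replicate 1, filled circles replicate 2 and squares replicate 3, and each axis starts at 0. Plagl1 is high and Slc22a18 low in replicate 1 of every construct, and Dlk1 is lower in every wild-type than in every mutant Snai1 library.

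Impact on chromosome 18 had 75.7, 69.0 and 69.9 CPM of H3K4me2 in wild-type, 91.3, 54.2 and 52.0 CPM in mutant and 75.7, 62.9 and 68.3 CPM in empty-vector cells. The constructs overlapped, and the log2 fold change was 0.05 ± 0.18 for wild type and -0.06 ± 0.18 for mutant against the empty vector, and 0.12 ± 0.18 between wild type and mutant. In H3K4me1 these were 0.18 ± 0.24, -0.06 ± 0.24 and 0.25 ± 0.22 (edgeR adjusted p between 0.733 and 1.00 over the 6 comparisons).

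Several windows of low level had the next smallest p-values in wild-type against mutant Snai1. The silent families moved the same way in replicates 2 and 3: they held 0.243% and 0.288% of the H3K4me2 counts in wild-type, 0.462% and 0.441% in mutant and 0.312% and 0.337% in empty-vector cells. In replicate 1 they held 0.289%, 0.231% and 0.290% in the same order of constructs, and their part in the values below was not tested. Nespas had 11.9, 6.41 and 6.51 CPM of H3K4me1 in wild-type and 17.3, 15.9 and 14.6 CPM in mutant Snai1 cells, without overlap (log2 fold change -0.92 ± 0.31, edgeR adjusted p = 0.872). In H3K4me2 the Nespas difference was -0.60 ± 0.24 (edgeR adjusted p = 0.503) and that of its neighbour Gnas, the stimulatory G protein subunit, -0.54 ± 0.23. Gnas has 4 RefSeq starts and no RefSeq start was available for Nespas, so whether their windows share reads is not known. Their counts differed by up to 75 in a library. Snrpn H3K4me2 was -0.83 ± 0.32, with 2.23, 1.75 and 2.66 CPM in wild-type and 2.21, 4.82 and 5.06 CPM in mutant Snai1 cells, which overlap through replicate 1. Nnat H3K4me2 was -0.64 ± 0.30, and Mcts2 H3K4me1 was -0.38 ± 0.16 without overlap (edgeR adjusted p = 0.918).
Against the empty vector, Gnas H3K4me2 was -0.50 ± 0.23 and Rasgrf1 -0.56 ± 0.31 in wild-type Snai1 cells. Usp29 and Peg3, which share their reads, were -0.41 ± 0.23 and -0.40 ± 0.23 in wild-type and -0.56 ± 0.23 and -0.46 ± 0.23 in mutant Snai1 cells. Snrpn was 0.74 ± 0.32 and Blcap 0.16 ± 0.09 in mutant Snai1 cells. In H3K4me1, Nespas was -0.60 ± 0.34, Kcnq1 -0.48 ± 0.29 and Igf2 -0.38 ± 0.26 in wild-type Snai1 cells, and Igf2 was -0.45 ± 0.26 and Mcts2 0.18 ± 0.18 in mutant Snai1 cells. None of them passed in edgeR (adjusted p between 0.684 and 1.00).

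Replicate 1 differed from replicates 2 and 3 in some imprinted windows more than the constructs did. In H3K4me2, 3 imprinted windows were higher in every replicate 1 library than in every other (7.26% of all windows) and 3 were lower (7.31%). In H3K4me1, 2 were higher (12.7%) and 3 lower (9.69%). Plagl1 had 24.6, 30.5 and 27.7 CPM of H3K4me2 in replicate 1 of wild-type, mutant and empty-vector cells, against 4.74 to 5.93 CPM in replicates 2 and 3. Slc22a18 had 13.2, 12.6 and 13.7 CPM in replicate 1 and 26.9 to 40.7 CPM in the others. In H3K4me2, Peg13 and Phlda2 were also lower, and Mkrn3 and Impact higher, in every replicate 1 library, while in H3K4me1 this held for Impact and the libraries of the other 3 overlapped.
Among replicates 2 and 3 alone, which differ by little more than counting error, 7 imprinted windows passed in H3K4me2 (23.5% of all windows) and 13 in H3K4me1 (34.4%) for wild-type Snai1 against empty vector. The counts were 11 (32.7%) and 8 (30.3%) for mutant Snai1 against empty vector and 19 (58.3%) and 13 (42.9%) for wild-type against mutant Snai1. Dlk1, Airn, Slc22a18 and Ube3a passed in both marks in the first comparison, 7 windows including Dlk1 and Airn in the second, and 10 including Dlk1, Meg3, Nespas, Gnas and Impact in the third, each with the same sign in both marks. These p-values describe libraries that may be technical repeats.

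Other imprinted genes and genes of the imprinting machinery gave no calls either. Of 38 further imprinted genes, 24 stood above the silent line in H3K4me2 (58.9% of all windows) and 24 in H3K4me1 (61.5% of all windows), a share near that of all windows. Of 27 machinery genes, 23 stood above it in H3K4me2 and 24 in H3K4me1, including Dnmt1 (2.44), the maintenance methyltransferase, Trim28 (5.53), a co-repressor of ZFP57, and Kdm1a (4.55), which encodes Lsd1. In each of the 6 comparisons 0 of 38 and 0 of 27 passed. Their smallest p-value in H3K4me2 of wild-type Snai1 against empty vector was that of Tet3, an oxidase of methylated DNA, with 25.1 ± 7.45 and 53.8 ± 21.7 CPM (log2 fold change -1.08 ± 0.28, edgeR adjusted p = 0.446). For wild-type against mutant Snai1, Cdkn1c was 0.79 ± 0.30 and Cobl -0.92 ± 0.34 in H3K4me2, and Asb4 was -0.64 ± 0.21 and Ctcfl -0.80 ± 0.28 in H3K4me1.

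Snai1 peaks lay at few imprinted genes. Within 5 kb of a gene end, the wild-type Snai1 list had a peak at 0 of 41 genes (7.81% of all 25173 genes), the mutant list at 4 (28.4% of all genes) and the empty-vector list at 0 (0.493% of all genes). The lists hold 2929, 12037 and 137 peaks and have no replicate check. The strongest mutant peak by -log10 q was that of Mkrn3, with 8.03-fold enrichment and a -log10 q of 26.6 as the authors give them, at chr7:62419973-62420333. Its summit lay 13 bases upstream of the start, inside the upstream sequence printed above. The peak at Mcts2 (chr2:152686947-152687252) was 4.44-fold enriched, with a summit 89 bases upstream of the start, and it lies inside H13 as well. Commd1 had a peak of 4.86-fold, 128 bases beyond a RefSeq start, and Peg13 one of 5.09-fold.
Inside annotated genes, the mutant list had a peak at 10 imprinted genes (24.9% of all genes), and the wild-type (6.65%) and empty-vector (0.338%) lists at 1 each. That 1 gene was Impact in both, with peaks of 6.13-fold in the wild-type, 5.11-, 4.44- and 4.52-fold in the mutant and 9.92-fold in the empty-vector list. Gnas had a mutant peak of 7.58-fold 330 bases upstream of an internal start, Kcnq1 one of 8.03-fold, Inpp5f one of 4.96-fold, and Grb10 ones of 7.03- and 2.73-fold. No Snai1 peak lay inside or within 20 kb of either end of Dlk1, Airn or Igf2r in any list. Mkrn3, with the strongest peak, had 47.8, 42.3 and 41.6 CPM of H3K4me2 in replicates 1, 2 and 3 of wild-type Snai1 cells, 50.1, 37.3 and 32.1 in mutant Snai1 cells and 47.6, 43.7 and 40.5 in empty-vector cells, which overlap.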

How the data were processed

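Counts of reads in start-site windows (5 kb around the start, as the deposited table is named) were deposited by the authors as raw counts per Entrez gene ID, 1 column per library; Subread and featureCounts are named in the submitters' processing notes without version. The Snai1 peak lists were deposited with fold enrichment over local background, -log10 q and a peak score, in the narrowPeak layout; MACS2 and mm10 (GRCm38) are named in the submitters' processing notes. Whether the input libraries were the control is not given in the sources used here.

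Symbols were matched for 25204 of 27095 rows (93.0%) in a RefSeq table of GRCm38.p6, Nespas through a synonym. Rows with no read (20) or equal to an earlier row (31) were left out. Depth is the column total, and intervals of single counts are not given. All 41 imprinted windows passed the filter on low counts in each fit.

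Counts were tested with edgeR 4.0.16 (R 4.3.3), the two-sided quasi-likelihood F-test. TMM factors were computed within a mark, low windows were removed with filterByExpr, and p-values were adjusted by Benjamini and Hochberg's method across every window tested, with a threshold of 0.05. Fits against IgG and between marks used column totals, since TMM assumes that most windows do not differ. Alternatives included DESeq2 1.42.0, scaling to the silent families, replicate blocks and leaving out each library. The fits were tested on simulated data. Deviations of same-numbered libraries correlated above 0.1 in every pair between wild type and empty vector (0.19 to 0.33 in H3K4me2, 0.12 to 0.28 in H3K4me1) and between mutant and empty vector (0.16 to 0.37 and 0.36 to 0.57). Replicate 2 of 1 construct and replicate 3 of the other also correlated in these pairs (0.089 to 0.26 in H3K4me2, 0.063 to 0.39 in H3K4me1). The data thus set replicate 1 against the others and do not show that numbers 2 and 3 pair the samples.

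Gene ends and starts came from RefSeq, and Python 3.11.15 with pandas 2.3.3 and numpy 2.4.6 joined them. The imprinted genes and other lists were chosen with earlier results of these data known. Genes named in each comparison were the up to 6 with the smallest p, the Dlk1-Meg3 and Igf2r-Airn clusters and Impact, and up to 2 of each other list.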

Additional observations from a re-analysis of the deposited data

How the results depend on the processing

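In the 6 construct comparisons 0 imprinted windows passed, and the count moved in these settings. With replicates 2 and 3 only, it was 7, 11 and 19 in H3K4me2 and 13, 8 and 13 in H3K4me1 (wild-type Snai1 against empty vector, mutant against empty vector, wild type against mutant). For wild type against mutant it was 1 in H3K4me2 with scaling to the silent families (0.198% of all windows), 1 in each mark with replicates 2 and 3 summed and a term for replicate 1 (0.45% and 0.0734%), and 1 in H3K4me1 with DESeq2. Leaving out 1 library gave 0 to 1 in H3K4me2 for mutant against empty vector, with 1 without mutant replicate 1 (2.4% of all windows) and 1 without empty-vector replicate 1 (1.58%). For wild type against mutant it gave 0 to 6, with 6 without mutant replicate 1 (16.6%) and 1 without wild-type replicate 1 (0.957%). H3K4me1 over IgG ranged from 3 to 7, with 7 without H3K4me1 replicate 1 (30.6%). Against IgG, scaling to the silent families gave 15 and 17, and TMM gave 9 in H3K4me1 (41.6% of all windows). With the replicate block, 0 passed in each construct comparison, 39 differed between the marks (88.2% of all windows), and 2 were higher than IgG in H3K4me1 without replicate 3 (28.1%). Peaks inside the gene (chosen after seeing the data) gave 1, 10 and 1 genes in the wild-type, mutant and empty-vector lists (6.65%, 24.9% and 0.338% of all genes). Peaks within 20 kb of a gene end also gave 1, 10 and 1 genes, where the shares of all genes were 15.2%, 43% and 0.977%.

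Signs turned in uncalled windows, and the cause was not tested. With chromosome shifts removed, H3K4me2 against the empty vector was -0.018 for Igf2r, -0.033 for Impact and -0.40 for Rian in wild type, and -0.048 for Rian in mutant. With scaling to the silent families, which put the median of all windows at 0.25 in H3K4me2, wild type against mutant was 0.27 for Airn, 0.20 for Igf2r and 0.14 for Rian, and 0.024 for Airn in H3K4me1. Impact H3K4me1 in mutant was 0.023 with empty-vector replicates apart, 0.017 with the replicate block and 0.0051 with replicates summed.
Leaving out 1 library gave these ranges. For H3K4me2 of wild type against empty vector, Impact ran from -0.011 to 0.13 and Rian from -0.074 to 0.22. For mutant against empty vector, Impact ran from -0.41 to 0.080 in H3K4me2 and from -0.32 to 0.23 in H3K4me1. For wild type against mutant in H3K4me2, Airn ran from -0.39 to 0.17, Igf2r from -0.15 to 0.12 and Impact from -0.027 to 0.46, and in H3K4me1 Airn ran from -0.31 to 0.24. The replicate block changed no call of an imprinted window in the construct comparisons. For wild type against mutant, correlations of same-numbered libraries ran from -0.21 to 0.13 in H3K4me2 and from -0.076 to 0.24 in H3K4me1. The replicate block called 12 and 2 of all windows there.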
